A study of Homo sapiens with 15 samples.

Results

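The DEAD and DEAH box RNA helicases are enzymes that spend ATP to open RNA duplexes or to pull proteins off RNA. DEAD box members, whose gene names begin with DDX, open short stretches locally, and DEAH box members, whose names begin with DHX, move along a strand. Between them they act at nearly every step in the life of an RNA: removal of introns by the spliceosome, assembly of ribosomes in the nucleolus, export through the nuclear pore, the start of translation, and decay. MYC is a transcription factor that drives ribosome production and growth in dividing cells, and DDX18 is a known direct target of it. The genes described here were the protein-coding entries named DDX or DHX followed by a number, without the antiviral sensors DDX58, DDX60, DDX60L and DHX58. The rule gave 46 genes, 31 DDX and 15 DHX, of 16109 genes listed in any of the 3 deposited tables, and all 46 were present in each table. By known role, 15 act in ribosome assembly, 12 in splicing, 4 in mRNA export, 7 in translation, decay and RNA structure, and 2 in mitochondria. A further 1, DDX11, is a DNA helicase, and 5 have other or little known roles. DDX26B is an older symbol of INTS6L, which is not an RNA helicase, and it was kept because the rule takes it.

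Expression was measured by RNA sequencing with exon capture in PC3, a prostate cancer line, and P493-6, a B cell line that the labels describe as Burkitt lymphoma overexpressing MYC, whose introduced MYC gene is switched off by tetracycline. There were 5 groups of 3 libraries. In PC3 these were 8 µM MYCi975 and its control, and in P493-6 6 µM MYCi975, 0.1 µg/ml tetracycline and their shared control. MYCi975 is a small molecule inhibitor of MYC. All cells grew in RPMI with 10% serum and were collected after 24 h. MYCi975 was dissolved in DMSO and tetracycline in water, and both controls received DMSO per the protocol although their treatment label reads as no treatment, so the tetracycline comparison also differs in vehicle. Whether the 3 libraries of a group stem from separate cultures is not said in the labels, so the p-values rest on a spread between libraries that may only be technical.

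The counted reads per library ranged from 8162582 to 15926008, and libraries of a group correlated with r between 0.994 and 0.997 across genes on the log2 scale. MYC, the check of the tetracycline label, averaged 5118 ± 29.4 CPM (reads of a gene per 1000000 counted reads) with MYCi975, 149 ± 3.75 CPM with tetracycline and 4728 ± 54.8 CPM in controls of P493-6 (SD, n = 3 each). In PC3 MYC averaged 374 ± 13.6 CPM with MYCi975 and 304 ± 4.96 CPM in controls. With MYCi975 the MYC mRNA was higher in both lines, by 0.30 in PC3 and 0.11 in P493-6 on the log2 scale (adjusted p = 3.99e-14 and 0.00535 in limma). All 6 epithelial markers were listed in PC3, and all 8 B cell markers in P493-6, while the listed B cell markers, 1 of 8, had at most 4.27 CPM in a PC3 library and the listed epithelial markers, 2 or 3 of 6, summed to at most 14.7 CPM in a P493-6 library. CPM is a share of each library, so all changes are relative to the other genes, and in bulk RNA fewer cells and less RNA per cell cannot be told apart.

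The family spans a wide range of levels, which were compared between genes as CPM per kilobase of the longest coding sequence. This scale does not correct for differences between genes in exon capture, so the order of genes is approximate. In PC3 controls DDX5, a splicing and transcription cofactor, came first at 363 ± 8.67 CPM per kb, and DDX3X, a translation initiation helicase, next at 262 ± 7.94 (SD, n = 3). DDX21, a nucleolar helicase of rRNA transcription and processing, followed at 207 ± 6.06. In P493-6 controls DDX5 reached 353 ± 18.3 CPM per kb and DDX21 331 ± 11.9, and these 2 neighbours in the order lay within their spread of each other. DDX3X came after them at 236 ± 9.34 and DDX6, a decapping factor, after it at 220.4 ± 5.75. The lowest in both lines were DDX26B and DDX47, so their changes rest on few reads. DDX47 also shares exon bases with another gene, so its low rank is uncertain. With tetracycline DDX6 stood first at 287 ± 13.1 CPM per kb, followed by DDX5 at 259 ± 5.13 and DDX17, the close relative of DDX5, at 254 ± 1.58. DDX21 was at rank 8 there with 48.96 ± 1.44 CPM per kb, and DHX33, another nucleolar helicase, at rank 42, against rank 24 in controls.

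**Figure D1:**
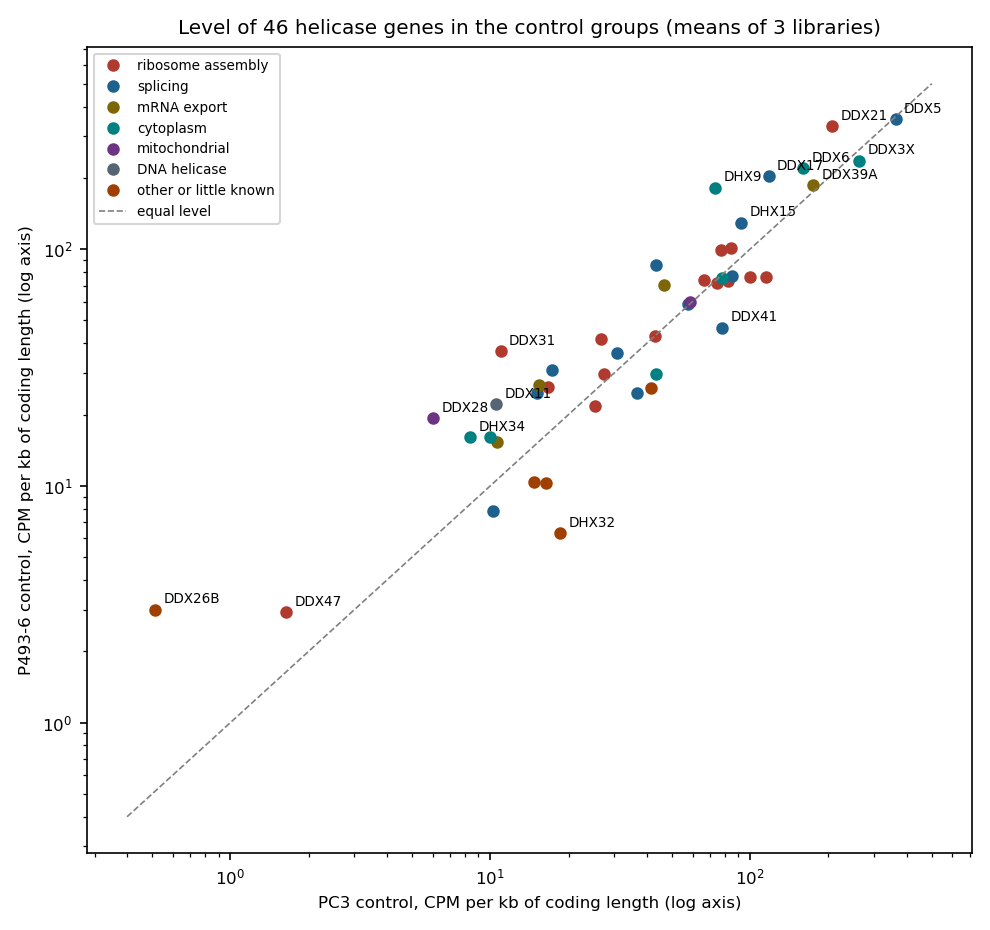
Mean level of the 46 helicases as CPM per kb of coding sequence in control PC3 (x axis) against control P493-6 (y axis), both on log axes, coloured by role. DDX5, DDX3X and DDX21 lie at the top of both lines, and DDX31 and DHX9 lie above the diagonal, on the P493-6 side.

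In all 3 comparisons with control most helicases fell, at a Benjamini-Hochberg adjusted p under 0.05 over all genes of the table in limma. In PC3 with MYCi975, 33 fell, 8 rose and 5 were not called, where 30.1% of all 13751 genes fell and 29.0% rose. The median change of the 46 was -0.25, against -0.00 over all genes, as a log2 difference of CPM + 1. In P493-6 with MYCi975, 30 fell, 2 rose and 14 were not called, where 18.0% of 12998 genes fell and 10.6% rose. The median was -0.17, against -0.04 over all genes. With tetracycline, 40 fell, 5 rose and 1 was not called, where 41.9% of 13703 genes fell and 36.2% rose. The median was -0.999, against -0.05 over all genes, and without DDX26B 40 fell and 4 rose, with a median of -1.14. All members are protein-coding. Among protein-coding genes alone, 32.6% fell and 30.4% rose in PC3 (median -0.01). In P493-6, 20.0% of them fell and 11.6% rose with MYCi975 (median -0.04), and 45.9% fell and 36.1% rose with tetracycline (median -0.11).

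As a total level, summed over the 46 genes, the libraries held 5479, 5454 and 5363 CPM in PC3 with MYCi975, against 6510.0, 6701 and 6640.0 CPM in PC3 controls. In P493-6 the sums were 6705, 6834 and 6707 CPM with MYCi975, 4190.0, 4192 and 4215 CPM with tetracycline, and 8082, 7691 and 7650.3 CPM in controls. No library of a treated group reached the lowest control of its line. Between groups, 33 members in PC3 lay below control in every library and 8 above, where 31.7% and 30.2% of all genes did. In P493-6 it was 33 below and 3 above with MYCi975, where 24.8% and 15.2% of all genes did, and 40 below and 5 above with tetracycline, where 42.1% and 36.3% did. By branch of the family, 20 of 31 DDX and 13 of 15 DHX genes fell in PC3. In P493-6, 20 DDX and 10 DHX genes fell with MYCi975, and 26 DDX and 14 DHX genes with tetracycline. The branches were not compared by a test.

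In P493-6 with MYCi975 the scaling between libraries matters: with TMM factors 21 helicases fell and 2 rose, with a median of -0.13. The 9 calls lost were DDX6, DDX11, DDX28, DDX51, DHX16, DHX33, DHX36, DHX37 and DHX38. Among all genes 1819 rose and 1690 fell, against 1375 and 2338 on the CPM scale. With tetracycline all 8 B cell markers rose, and they summed to 11673 to 12083 CPM, against 3958 to 4191 CPM in P493-6 controls. The tetracycline libraries held 8162582 to 9895173 reads, against 9774101 to 12212555 in controls. The part of either in the fall of the helicases was not tested.

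Gene by gene, DDX17 was called higher in all 3 comparisons. DDX6 and DHX8 fell with MYCi975 in both lines and rose with tetracycline. DDX50 rose with MYCi975 in both lines and fell with tetracycline, and DDX10, DDX19B, DDX41, DDX42 and DHX32 rose in PC3 and fell with tetracycline. No member was called in opposite directions by MYCi975 in PC3 and in P493-6, where 3.01% of the 11240 genes in both tables were. This depends on DDX10, which rose in PC3 and was not called in P493-6. In P493-6 it was called lower with a mean CPM of at least 5 (adjusted p = 0.0461 in limma). The same held without P493-6 control replicate 3 (0.037). In both lines 29 members fell, where 13.5% of genes did, and 2 rose, where 6.21% did. Both P493-6 comparisons share their 3 controls, so their changes are given side by side and not correlated.

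**Figure D2:**
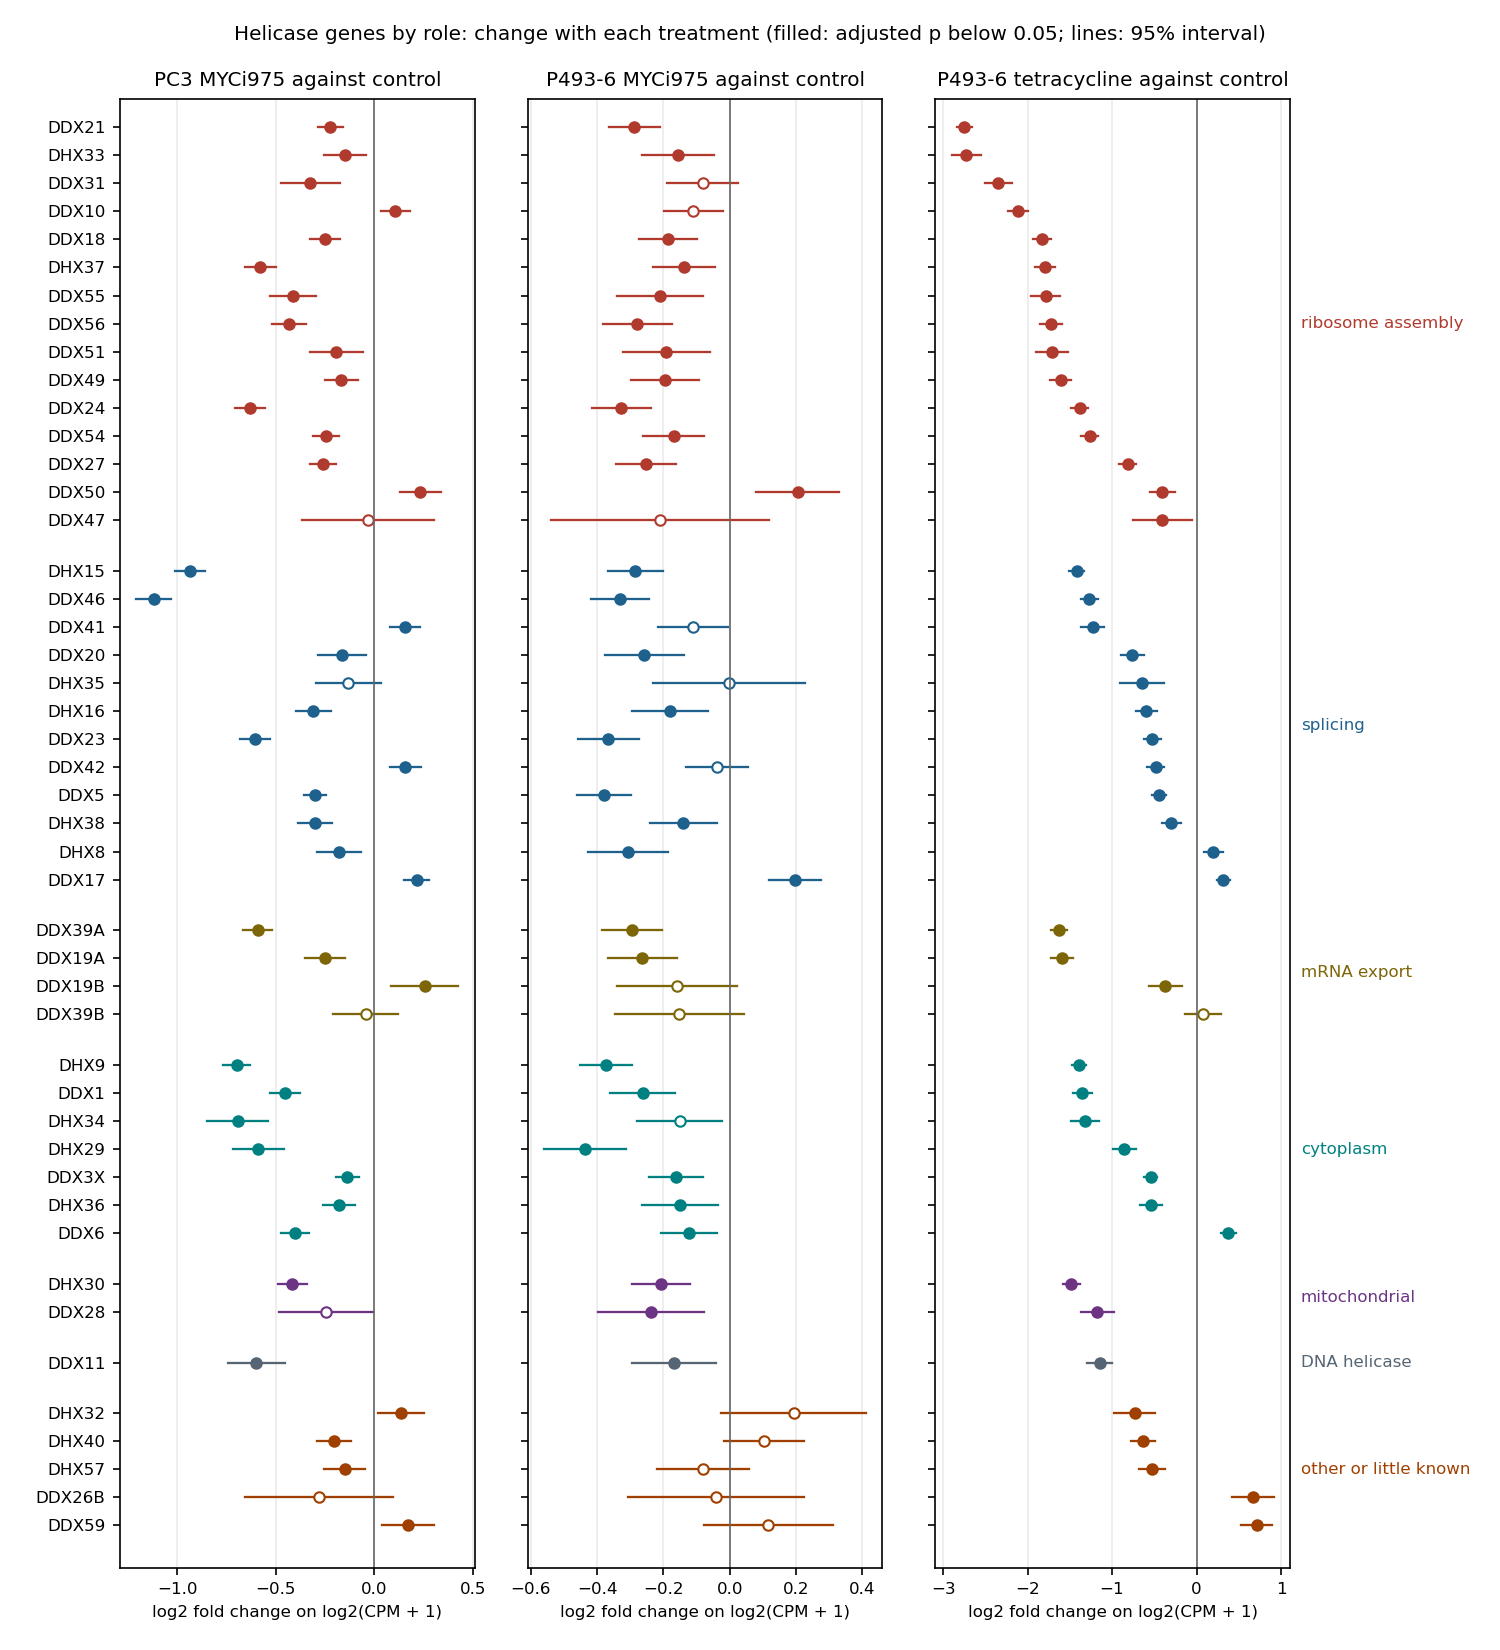
Log2 difference from control of all 46 helicases, ordered by role, for MYCi975 in PC3, MYCi975 in P493-6 and tetracycline in P493-6 (panels with different x scales; points are limma estimates, bars their 95% intervals, filled points are called). Most points lie left of 0, and the ribosome assembly genes reach -2.75 in the tetracycline panel.

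The counts by role that follow stand beside shares of all genes. In PC3 30.1% of all genes fell and 29.0% rose. In P493-6 18.0% fell and 10.6% rose with MYCi975, and 41.9% fell and 36.2% rose with tetracycline. The 15 helicases of ribosome assembly, which refold pre-ribosomal RNA in the nucleolus, held the 6 largest falls with tetracycline, where all 15 fell, with a median of -1.73. With MYCi975, 12 fell and 2 rose in PC3 (median -0.25), and 11 fell and 1 rose in P493-6 (median -0.19). The 4 sequences below show the 250 bases upstream of the RefSeq start of DDX31 and DDX54, a pair of these genes with an E-box (CACGTG, the core sequence that MYC with MAX binds), and of DDX21 and DDX6, the member that fell most with tetracycline and the one with the highest level per kb among those that rose, which have none in these bases. They are RefSeq sequence of GRCh38.p14, read 5′ to 3′ toward the gene, and capitals mark the E-box. The RefSeq start can differ from the gene bounds that the deposited tables give.
DDX31 (chr9:132669984-132670233, minus strand): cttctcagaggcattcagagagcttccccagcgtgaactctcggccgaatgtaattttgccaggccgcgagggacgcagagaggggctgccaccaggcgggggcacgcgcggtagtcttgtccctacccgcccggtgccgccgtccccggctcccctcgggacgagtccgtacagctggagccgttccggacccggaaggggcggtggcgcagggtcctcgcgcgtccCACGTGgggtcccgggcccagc
DDX54 (chr12:113185479-113185728, minus strand): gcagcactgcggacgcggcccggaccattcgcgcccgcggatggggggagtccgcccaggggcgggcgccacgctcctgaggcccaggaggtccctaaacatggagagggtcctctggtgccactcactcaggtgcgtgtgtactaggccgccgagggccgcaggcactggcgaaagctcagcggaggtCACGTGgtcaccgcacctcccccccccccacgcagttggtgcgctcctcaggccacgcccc
DDX21 (chr10:68955920-68956169, plus strand): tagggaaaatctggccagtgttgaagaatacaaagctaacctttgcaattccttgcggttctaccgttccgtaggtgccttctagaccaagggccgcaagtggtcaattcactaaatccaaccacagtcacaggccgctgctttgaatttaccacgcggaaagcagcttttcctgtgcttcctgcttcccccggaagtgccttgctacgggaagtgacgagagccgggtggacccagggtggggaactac
DDX6 (chr11:118791745-118791994, minus strand): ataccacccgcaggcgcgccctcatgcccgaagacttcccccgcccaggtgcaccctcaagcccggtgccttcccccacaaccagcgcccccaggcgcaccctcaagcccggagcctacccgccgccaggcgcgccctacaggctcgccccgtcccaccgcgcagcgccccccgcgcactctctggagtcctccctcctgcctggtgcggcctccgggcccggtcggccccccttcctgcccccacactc
The E-box begins 22 bases before the start in DDX31 and 61 bases before it in DDX54. CACGTG reads the same on both strands. In the window from 250 bases before to 50 after the start it was found in 8 of the 43 helicase promoters in the table, or 18.6%, among them DDX5, DHX32, DHX34, DHX35, DHX37 and DHX40. It was found in 7.43% of all 27305 promoters and in 10.6% of those of protein-coding genes listed in the tetracycline table. The median tetracycline change was -0.998 in the 8 genes with it and -0.81 in the 35 without it. DHX33, DDX18 and DDX49 have no promoter entry, so neither median holds their changes of -2.73, -1.83 and -1.61. The medians were not compared by a test. A match of letters is a description and no measure of binding.

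DDX21 (ENSG00000165732, chromosome 10, 68956128 to 68985073, plus strand) had 111, 117 and 117 CPM with tetracycline, against 809.9, 764 and 759 CPM in P493-6 controls, a change of -2.75 (SE 0.042, adjusted p = 3.29e-38). With MYCi975 it had 629, 655 and 626 CPM, a change of -0.29 (SE 0.038, adjusted p = 8.23e-08), and in PC3 439, 418 and 391 CPM with MYCi975, against 469.5, 497 and 489 CPM in controls, a change of -0.22 (SE 0.032, adjusted p = 6.88e-09). The groups overlapped in none of these, and the tetracycline libraries lay far below all others. DHX33 (ENSG00000005100, chromosome 17, 5440912 to 5469060, minus strand), which promotes rRNA synthesis, had 11.5, 14.7 and 11.7 CPM with tetracycline, against 94.4, 87.5 and 84.6 CPM in controls, a change of -2.73 (SE 0.085, adjusted p = 1.18e-27). In P493-6 with MYCi975 DHX33 had 78.5, 78.8 and 81.5 CPM, a change of -0.16 (SE 0.054, adjusted p = 0.026), and in PC3 49.6, 50.4 and 53.2 CPM with MYCi975, against 55.9, 57.1 and 57.4 CPM in controls, a change of -0.15 (SE 0.054, adjusted p = 0.0123). DHX33 thus moved by a small amount with MYCi975 in both lines, with no overlap of groups. DDX31 (ENSG00000125485, chromosome 9, 132592997 to 132670401, minus strand), a nucleolar helicase of the large subunit pathway, had 16.0, 17.6 and 20.1 CPM with tetracycline, against 98.9, 96.5 and 89.3 CPM in controls, a change of -2.35 (SE 0.078, adjusted p = 7.98e-27). With MYCi975 DDX31 had 87.7, 92.6 and 88.5 CPM in P493-6, overlapping the controls, and was not called (-0.08, SE 0.053, adjusted p = 0.266). In PC3 it had 22.8, 21.5 and 21.9 CPM with MYCi975, against 25.5, 27.0 and 31.5 CPM in controls (-0.32, SE 0.075, adjusted p = 0.00012), and every treated library was below every control.

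DDX18, whose yeast counterpart acts in ribosome assembly, had 57.0, 56.5 and 52.2 CPM with tetracycline, against 197, 201 and 199 CPM in controls, a change of -1.83 (SE 0.053, adjusted p = 4.67e-29 in limma). DHX37, whose yeast counterpart releases the U3 small nucleolar RNA, had 44.0, 40.1 and 42.0 CPM with tetracycline, against 152, 149 and 145 CPM in controls, a change of -1.80 (SE 0.058, adjusted p = 1.84e-27). Neither pair of groups overlapped. In PC3 DHX37 fell to 100.1, 101 and 98.5 CPM with MYCi975, against 152, 149 and 149 CPM in controls (-0.58, SE 0.040, adjusted p = 8.37e-24), and DDX18 changed by -0.25 there. In P493-6 with MYCi975 DDX18 changed by -0.19 and DHX37 by -0.14, both called lower on the CPM scale. DDX24, of the large subunit pathway, had 146, 143 and 132 CPM in PC3 with MYCi975, against 212, 219 and 222 CPM in controls (-0.63, SE 0.038, adjusted p = 4.78e-28 in limma). In P493-6 DDX24 had 209, 213 and 199.8 CPM with MYCi975 and 100.4, 97.2 and 99.7 CPM with tetracycline, against 274, 248.8 and 259 CPM in controls, changes of -0.33 (SE 0.044, adjusted p = 9.57e-08) and -1.38 (SE 0.047, adjusted p = 1.36e-26). DDX24 fell in all 3 comparisons with no overlap.

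DDX10 and DDX50 were the 2 genes of this role that rose in PC3. DDX10 (ENSG00000178105, chromosome 11, 108665025 to 108940930, plus strand), whose yeast counterpart acts on the small subunit, had 186, 192 and 185 CPM in PC3 with MYCi975, against 171, 175 and 177 CPM in controls (0.11, SE 0.036, adjusted p = 0.00902). In P493-6 DDX10 had 177, 181 and 181 CPM with MYCi975, which was not called (-0.11, SE 0.044, adjusted p = 0.0575), and 42.4, 42.4 and 47.9 CPM with tetracycline, against 200.2, 195 and 187 CPM in controls (-2.11, SE 0.057, adjusted p = 5.51e-30). DDX10 thus lay above control in all 3 treated PC3 libraries and below control in all 3 tetracycline libraries. DDX50 (ENSG00000107625, chromosome 10, 68901278 to 68946847, plus strand), the neighbour and close relative of DDX21, had 67.4, 64.7 and 64.8 CPM in PC3 with MYCi975, against 58.5, 55.1 and 53.6 CPM in controls (0.23, SE 0.052, adjusted p = 6.24e-05). In P493-6 DDX50 had 58.1, 54.4 and 54.1 CPM with MYCi975 and 35.0, 39.4 and 33.8 CPM with tetracycline, against 48.9, 47.6 and 47.7 CPM in controls, changes of 0.20 (SE 0.063, adjusted p = 0.0109) and -0.41 (SE 0.074, adjusted p = 5.36e-06). No groups overlapped for DDX50. The remaining genes of this role, DDX27, DDX47, DDX49, DDX51, DDX54, DDX55 and DDX56, also fell with tetracycline, with log2 changes between -1.79 for DDX55 and -0.40 for DDX47. DDX47 averaged 2.76 ± 0.161 CPM with tetracycline and 3.984 ± 0.45 CPM in controls and shares 36.5% of its exon bases with APOLD1 on the same strand, so its reads may not all be its own. Its call was lost with TMM factors (adjusted p = 0.0658 in limma) and without control replicate 3 or tetracycline replicate 2 (0.122 and 0.0774).

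In P493-6 with MYCi975 the calls of DHX33 and DHX37 were lost with TMM factors, at adjusted p of 0.113 and 0.128 in limma. They were also lost without single libraries, for DHX33 without control replicate 1 or 2 or MYCi975 replicate 1 or 2 (adjusted p 0.0543 to 0.171 in limma), and for DHX37 without control replicate 1 or 2 or MYCi975 replicate 2 or 3 (0.0589 to 0.0712). The rise of DDX50 there was lost without MYCi975 replicate 1 (adjusted p = 0.0776), and in PC3 the rise of DDX10 without MYCi975 replicate 2 (0.05, just past the threshold) and the fall of DHX33 without MYCi975 replicate 1 (0.0589).

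**Figure D3:**
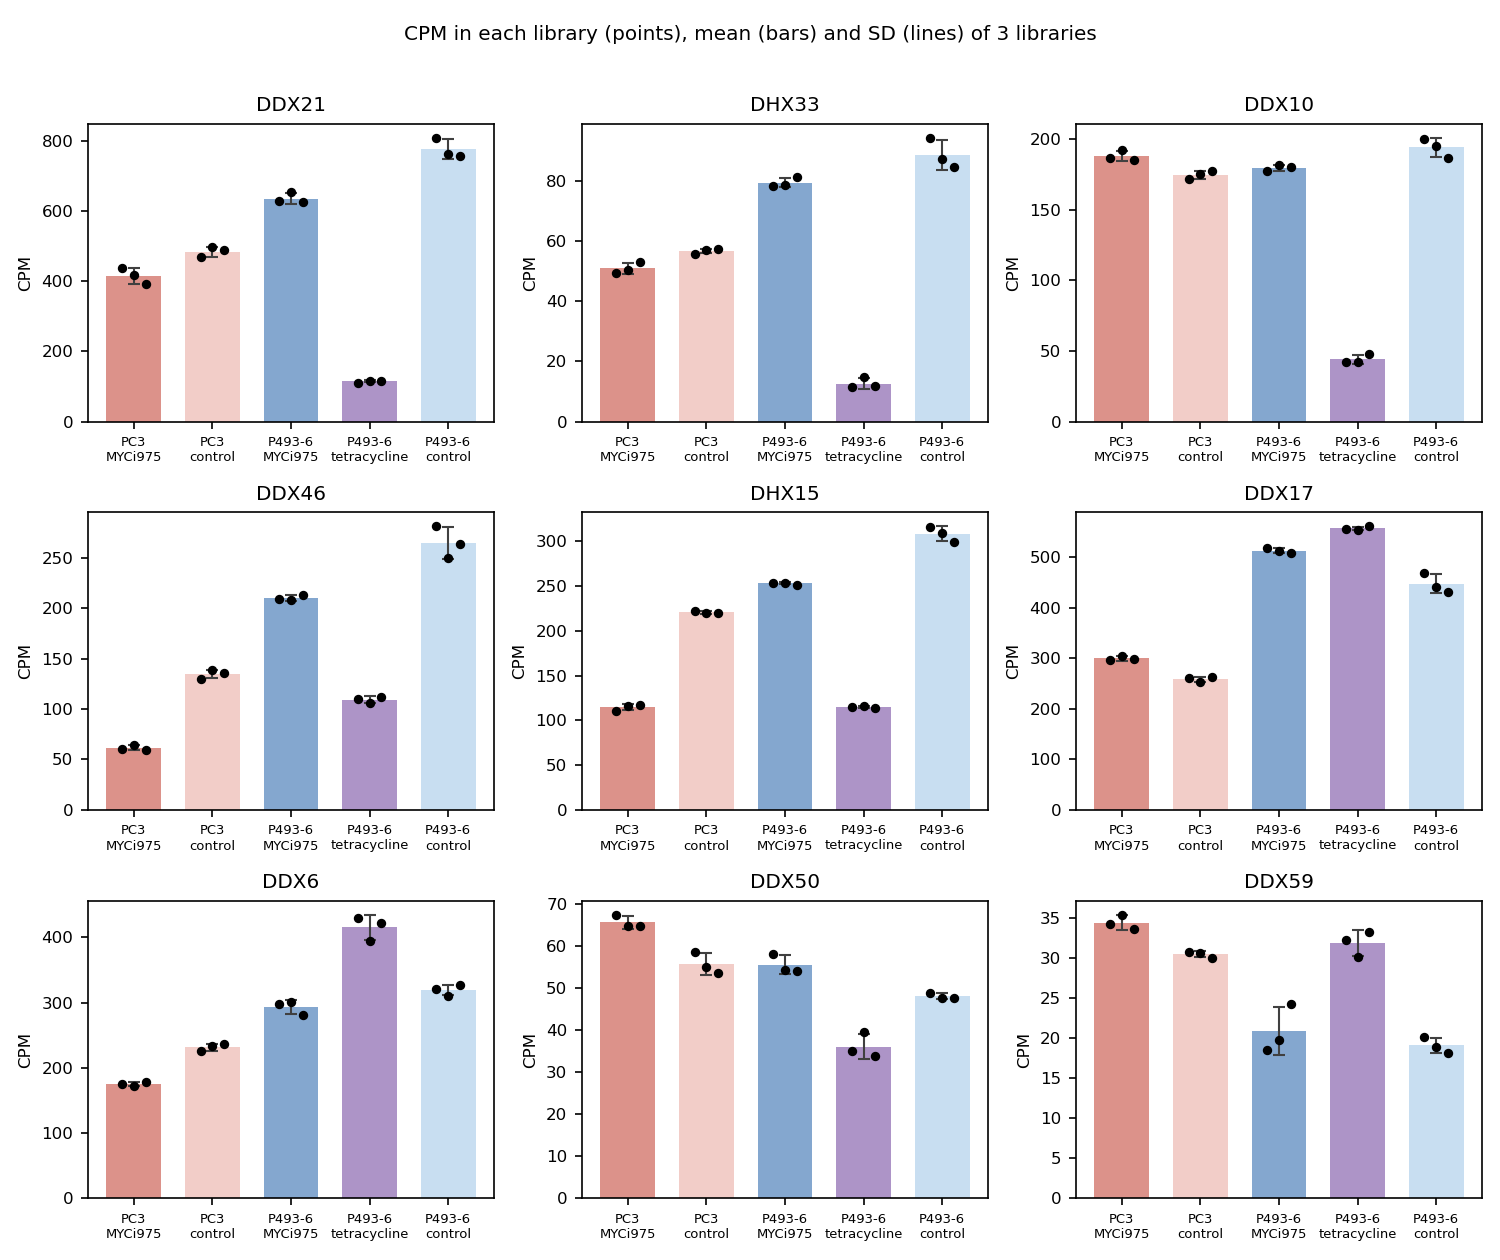
CPM of 9 helicases in the 5 groups (bars are means of 3 libraries, points single libraries, y axes from 0 and different in each panel). DDX21, DHX33 and DDX10 are low with tetracycline, DDX46 and DHX15 are low with MYCi975 in PC3 and with tetracycline, and DDX17 lies above control in every treated group.

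The 12 splicing helicases, which act in the spliceosome, as splicing cofactors or in building spliceosomal particles, included the 2 largest falls in PC3. There 8 fell and 3 rose, with a median of -0.24, and the share that rose, 25%, was near the 29.0% of all genes. In P493-6, 8 fell and 1 rose with MYCi975 (median -0.22), and 10 fell and 2 rose with tetracycline (median -0.56). DDX46 (ENSG00000145833, chromosome 5, 134758779 to 134855133, plus strand), which helps the U2 particle onto the branch point, had 60.5, 64.3 and 59.7 CPM in PC3 with MYCi975, against 130.0, 139 and 136 CPM in controls, a change of -1.12 (SE 0.045, adjusted p = 2.13e-40). In P493-6 DDX46 had 209, 208 and 213 CPM with MYCi975 and 109.8, 106 and 112 CPM with tetracycline, against 281, 249.9 and 263 CPM in controls, changes of -0.33 (SE 0.044, adjusted p = 7.92e-08) and -1.27 (SE 0.048, adjusted p = 4.31e-25). All treated libraries of DDX46 lay below their controls, and the treated PC3 libraries were far below the lowest PC3 control. DHX15 (ENSG00000109606, chromosome 4, 24517441 to 24584550, minus strand), which takes apart the spent spliceosome and also serves ribosome assembly, had 111, 117 and 117 CPM in PC3 with MYCi975, against 222, 220.3 and 219 CPM in controls, a change of -0.94 (SE 0.038, adjusted p = 2.04e-40). In P493-6 DHX15 had 254, 253 and 252 CPM with MYCi975 and 115, 116 and 113 CPM with tetracycline, against 316, 309 and 299.7 CPM in controls, changes of -0.28 (SE 0.041, adjusted p = 4.22e-07) and -1.42 (SE 0.044, adjusted p = 6.62e-28). Again no groups overlapped, and the P493-6 groups were ordered with tetracycline lowest and control highest. DDX23, the helicase of the U5 particle that lets U6 replace U1, had 139, 141 and 133 CPM in PC3 with MYCi975, against 207, 213 and 209 CPM in controls (-0.61, SE 0.037, adjusted p = 2.25e-27). In P493-6 DDX23 had 142, 147 and 152 CPM with MYCi975 and 126, 141 and 128 CPM with tetracycline, against 191, 194 and 183 CPM in controls, changes of -0.37 (SE 0.046, adjusted p = 1.75e-08) and -0.52 (SE 0.048, adjusted p = 1.25e-12). DDX23 lay below control in every treated library of both lines.

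DHX8, which releases the finished mRNA from the spliceosome, moved in opposite directions in P493-6. It had 65.5, 75.4 and 77.7 CPM with MYCi975 and 98.7, 107 and 106 CPM with tetracycline, against 97.4, 85.6 and 88.1 CPM in controls, changes of -0.31 (SE 0.060, adjusted p = 8.69e-05) and 0.20 (SE 0.057, adjusted p = 0.00165). Every MYCi975 library lay below, and every tetracycline library above, all 3 controls. In PC3 DHX8 had 52.8, 44.7 and 48.99 CPM with MYCi975, against 53.1, 56.1 and 57.1 CPM in controls (-0.18, SE 0.057, adjusted p = 0.00398), a call that was lost without MYCi975 replicate 2 (adjusted p = 0.0853 in limma). The other DEAH helicases of the catalytic steps fell in all 3 comparisons. DHX16, which starts the first step, changed by -0.31 in PC3, -0.18 with MYCi975 in P493-6 and -0.59 with tetracycline, and DHX38, which acts between the steps, changed by -0.30, -0.14 and -0.30. Both calls in P493-6 with MYCi975 were lost with TMM factors (adjusted p = 0.0639 and 0.143 in limma) and without control replicate 1 or MYCi975 replicate 1 (0.0973 to 0.199). That of DHX38 was also lost with the replicate block (0.0613) and without control replicate 2 (0.0682) or MYCi975 replicate 2 (0.0996). DDX20, a subunit of the SMN complex that builds spliceosomal particles, also fell in all 3, with changes of -0.17, -0.26 and -0.76. Its call in PC3 was lost without control replicate 3 or MYCi975 replicate 1 or 3 (adjusted p 0.0526 to 0.203 in limma).

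DDX41 and DDX42 rose in PC3 and fell with tetracycline. DDX41, a late spliceosome helicase, had 172, 160.5 and 167 CPM in PC3 with MYCi975, against 153, 145 and 149.8 CPM in controls (0.16, SE 0.038, adjusted p = 0.000266). In P493-6 DDX41 had 83.4, 83.9 and 80.8 CPM with MYCi975, which was not called (-0.11, SE 0.053, adjusted p = 0.114), and 39.7, 38.1 and 34.9 CPM with tetracycline, against 91.8, 87.0 and 89.2 CPM in controls (-1.23, SE 0.065, adjusted p = 4.16e-20). The tetracycline libraries of DDX41 were far below the lowest control. DDX42, which travels with the SF3b part of the U2 particle, had 179, 179.9 and 180.3 CPM in PC3 with MYCi975, against 148, 174 and 162 CPM in controls (0.16, SE 0.040, adjusted p = 0.000563), and all 3 treated libraries lay above the highest control. In P493-6 DDX42 had 156, 159 and 166 CPM with MYCi975, which overlapped the controls and was not called (-0.04, SE 0.047, adjusted p = 0.59), and 119.6, 120.4 and 112 CPM with tetracycline, against 173, 161 and 159 CPM in controls (-0.48, SE 0.050, adjusted p = 2.06e-11). DHX35, another late spliceosome helicase, was called only with tetracycline (-0.65, SE 0.13, adjusted p = 1.97e-05), with -0.13 in PC3 and -0.00 with MYCi975 in P493-6.

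DDX5 and DDX17 are close relatives that share work in splicing and transcription, and they went opposite ways in all 3 comparisons. DDX5 (ENSG00000108654, chromosome 17, 64499616 to 64508199, minus strand) had 545, 546 and 537 CPM in PC3 with MYCi975, against 653, 685 and 669 CPM in controls (-0.30, SE 0.028, adjusted p = 1.07e-16). In P493-6 DDX5 had 492.8, 516 and 489.7 CPM with MYCi975 and 482, 466 and 483 CPM with tetracycline, against 689, 632 and 630.2 CPM in controls, changes of -0.38 (SE 0.040, adjusted p = 3.32e-10) and -0.44 (SE 0.040, adjusted p = 4.05e-13). DDX17 (ENSG00000100201, chromosome 22, 38483440 to 38507660, minus strand) had 297, 305 and 298 CPM in PC3 with MYCi975, against 260.3, 252 and 263 CPM in controls (0.21, SE 0.033, adjusted p = 2.05e-08). In P493-6 DDX17 had 518, 512 and 508 CPM with MYCi975 and 557, 554 and 561 CPM with tetracycline, against 468, 442 and 432 CPM in controls, changes of 0.20 (SE 0.040, adjusted p = 0.000125) and 0.32 (SE 0.039, adjusted p = 1.87e-09). All treated libraries lay below control for DDX5 and above control for DDX17. The sum of both was less changed than either in P493-6: it was 1011, 1028 and 998 CPM with MYCi975, 1039, 1021 and 1044 CPM with tetracycline, and 1158, 1074 and 1062 CPM in controls. Every treated sum still lay below the lowest control sum.

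The 4 mRNA export helicases form a pair of closely related pairs, so reads may be split between partners with error. Sequence identity between partners was not measured, nor was exon overlap with genes outside the deposited tables. DDX39A and DDX39B load export factors onto spliced mRNA, and DDX19A and DDX19B strip them at the nuclear pore. In PC3 2 of the 4 fell and 1 rose, in P493-6 2 fell with MYCi975 and 3 with tetracycline, and medians were -0.15, -0.21 and -0.98. The share that rose in PC3, 25%, was near the 29.0% of all genes. DDX39A had 148, 149.7 and 147 CPM in PC3 with MYCi975, against 236, 218 and 218 CPM in controls (-0.59, SE 0.037, adjusted p = 7.25e-27). In P493-6 DDX39A had 206, 197 and 181 CPM with MYCi975 and 76.2, 76.7 and 77.2 CPM with tetracycline, against 238, 245 and 234 CPM in controls, changes of -0.29 (SE 0.046, adjusted p = 1.64e-06) and -1.63 (SE 0.048, adjusted p = 8.75e-29). DDX39A fell throughout with no overlap. DDX39B had 27.8, 33.8 and 29.8 CPM in P493-6 with MYCi975 and 31.3, 40.2 and 36.5 CPM with tetracycline, against 41.2, 31.9 and 29.4 CPM in controls. In PC3 DDX39B had 18.5, 21.5 and 17.6 CPM with MYCi975, against 18.6, 20.1 and 20.6 CPM in controls. These groups overlapped each time, and DDX39B was the only member with no call in any comparison with control, at -0.04, -0.15 and 0.08. Without P493-6 control replicate 1 it was called higher with tetracycline (0.22, adjusted p = 0.0311 in limma).

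DDX19A had 57.8, 55.5 and 54.3 CPM in PC3 with MYCi975, against 67.2, 67.1 and 65.5 CPM in controls (-0.25, SE 0.051, adjusted p = 1.55e-05). In P493-6 DDX19A had 82.6, 86.4 and 83.8 CPM with MYCi975 and 31.2, 34.1 and 33.6 CPM with tetracycline, against 103, 103 and 98.2 CPM in controls, changes of -0.26 (SE 0.052, adjusted p = 8.36e-05) and -1.59 (SE 0.064, adjusted p = 3.88e-24). DDX19B had 19.5, 17.5 and 18.9 CPM in PC3 with MYCi975, against 16.2, 14.9 and 15.2 CPM in controls (0.25, SE 0.087, adjusted p = 0.00861). In PC3 the partners thus went opposite ways, with every DDX19B library above control and every DDX19A library below. In P493-6 DDX19B had 19.8, 18.8 and 21.0 CPM with MYCi975, which was not called (-0.16, SE 0.090, adjusted p = 0.188), and 16.5, 16.3 and 18.3 CPM with tetracycline, against 22.1, 23.4 and 21.4 CPM in controls (-0.37, SE 0.097, adjusted p = 0.000805).

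Of the 7 helicases of translation, decay and RNA structure, all 7 fell in PC3 (median -0.45). In P493-6, 6 fell and none rose with MYCi975 (median -0.16), and 6 fell and 1 rose with tetracycline (median -0.85). DHX9 (ENSG00000135829, chromosome 1, 182839369 to 182887751, plus strand), which unwinds structured RNA in the nucleus and the cytoplasm, had 169, 179 and 166 CPM in PC3 with MYCi975, against 274, 282 and 281 CPM in controls (-0.70, SE 0.035, adjusted p = 3.40e-33). In P493-6 DHX9 had 542, 548 and 514 CPM with MYCi975 and 264, 266 and 262 CPM with tetracycline, against 713, 668 and 697 CPM in controls, changes of -0.37 (SE 0.039, adjusted p = 2.65e-10) and -1.39 (SE 0.039, adjusted p = 2.13e-29). DHX9 fell in all 3 comparisons without overlap. DHX29, which helps the small subunit scan structured leaders, had 51.5, 46.2 and 48.5 CPM in P493-6 with MYCi975 and 35.1, 37.9 and 35.8 CPM with tetracycline, against 66.2, 65.2 and 67.5 CPM in controls, changes of -0.44 (SE 0.061, adjusted p = 2.27e-07) and -0.85 (SE 0.067, adjusted p = 1.18e-14). The first of these was the largest MYCi975 fall of the family in P493-6. In PC3 DHX29 had 26.5, 28.3 and 26.2 CPM with MYCi975, against 39.4, 41.2 and 42.8 CPM in controls (-0.59, SE 0.065, adjusted p = 2.31e-13).

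DHX34, a factor of nonsense-mediated decay, had 16.8, 16.6 and 18.7 CPM in PC3 with MYCi975, against 28.005, 31.8 and 26.5 CPM in controls (-0.69, SE 0.079, adjusted p = 5.43e-13). In P493-6 DHX34 had 49.3, 48.4 and 50.9 CPM with MYCi975, which was not called (-0.15, SE 0.064, adjusted p = 0.0715), and 22.0, 23.3 and 19.4 CPM with tetracycline, against 54.4, 52.0 and 59.0 CPM in controls (-1.32, SE 0.081, adjusted p = 6.52e-18). All treated libraries lay below their controls. DDX1, part of the tRNA ligase complex, fell throughout, with changes of -0.45 in PC3, -0.26 with MYCi975 in P493-6 and -1.35 with tetracycline. DDX3X, which helps ribosomes load on structured mRNA, had changes of -0.14, -0.16 and -0.54, and DHX36, which opens G-quadruplexes, of -0.18, -0.15 and -0.54, all of them called. The DHX36 call in P493-6 with MYCi975 was lost with TMM factors (adjusted p = 0.152 in limma), with the replicate block (0.0551), with all 9 P493-6 libraries (0.057) and without any single library but control replicate 3 (0.0645 to 0.295).

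DDX6 (ENSG00000110367, chromosome 11, 118747766 to 118791149, minus strand), which represses mRNA and promotes its decapping, was the member of this role that rose with tetracycline. It had 430.2, 394 and 422 CPM with tetracycline, against 321, 310.3 and 327 CPM in P493-6 controls (0.38, SE 0.041, adjusted p = 9.62e-11), with all 3 treated libraries above the highest control. With MYCi975 DDX6 had 298, 301 and 280.3 CPM in P493-6 (-0.12, SE 0.042, adjusted p = 0.0214), and in PC3 175, 172 and 178 CPM with MYCi975, against 226, 233 and 236 CPM in controls (-0.40, SE 0.035, adjusted p = 5.34e-18). DDX6 was below control in both lines with MYCi975. The small fall in P493-6 was lost with TMM factors (-0.08, adjusted p = 0.179 in limma), with edgeR on recovered reads (0.182), with the replicate block (0.067), without control replicate 3 (adjusted p = 0.099) and without MYCi975 replicate 3 (0.0987).

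DHX30 and DDX28 serve mitochondrial RNA and ribosome assembly. DHX30 had 163, 161 and 160.1 CPM in PC3 with MYCi975, against 208, 225 and 215 CPM in controls (-0.42, SE 0.037, adjusted p = 3.66e-18). In P493-6 DHX30 had 190.2, 185 and 193 CPM with MYCi975 and 78.9, 79.0 and 76.0 CPM with tetracycline, against 222, 223 and 213 CPM in controls, changes of -0.21 (SE 0.043, adjusted p = 0.000198) and -1.48 (SE 0.048, adjusted p = 3.71e-27). DHX30 fell each time without overlap. DDX28 changed by -0.25 in PC3, which was not called, and fell in P493-6, with changes of -0.24 with MYCi975 and -1.17 with tetracycline. The MYCi975 call was lost with TMM factors (adjusted p = 0.0615 in limma) and without control replicate 1 or 2 or MYCi975 replicate 1 or 3 (0.0605 to 0.0889). In PC3 DDX28 was called lower without control replicate 2 (0.00666) or MYCi975 replicate 3 (0.0296). Of its exon bases 22.5% overlap DUS2 on the opposite strand. DDX11, the DNA helicase of sister chromatid cohesion, had 20.1, 19.4 and 20.1 CPM in PC3 with MYCi975, against 30.3, 30.6 and 31.0 CPM in controls (-0.60, SE 0.073, adjusted p = 1.05e-11). In P493-6 DDX11 averaged 57.3 ± 3.59 CPM with MYCi975 and 28.6 ± 1.36 CPM with tetracycline, against 64.6 ± 4.79 CPM in controls, and it fell in both (-0.17 and -1.14). DDX11 has near-identical pseudogene copies, so its values are uncertain, and its MYCi975 call in P493-6 was lost with TMM factors (adjusted p = 0.133 in limma), the replicate block (0.059), all 9 P493-6 libraries (0.0701), and without control replicate 1 or 2 or MYCi975 replicate 1 or 3 (0.0584 to 0.22).

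Of the 5 genes of other or little known role, in PC3 2 rose and 2 fell, in P493-6 none was called with MYCi975, and with tetracycline 2 rose and 3 fell. DDX59, in which mutations cause an oral and facial malformation syndrome, had 32.3, 30.1 and 33.2 CPM with tetracycline, against 20.2, 18.9 and 18.2 CPM in P493-6 controls, a change of 0.71 (SE 0.089, adjusted p = 2.73e-09). With MYCi975 DDX59 had 18.6, 19.8 and 24.3 CPM in P493-6, which overlapped the controls and was not called (0.12, SE 0.097, adjusted p = 0.404), and in PC3 34.3, 35.4 and 33.6 CPM, against 30.8, 30.7 and 30.1 CPM in controls (0.17, SE 0.066, adjusted p = 0.0212). DHX32 had 8.15, 8.09 and 7.88 CPM with tetracycline, against 13.5, 14.4 and 14.2 CPM in P493-6 controls (-0.73, SE 0.12, adjusted p = 1.01e-06), and 10.4% of its exon bases overlap BCCIP on the opposite strand. With MYCi975 DHX32 had 16.4, 13.4 and 19.2 CPM in P493-6, which overlapped the controls and was not called (0.19, SE 0.11, adjusted p = 0.19), and in PC3 47.3, 44.1 and 44.9 CPM, against 40.6, 41.2 and 42.1 CPM in controls (0.13, SE 0.059, adjusted p = 0.043). DHX40 and DHX57 fell in PC3, with changes of -0.21 and -0.15, and with tetracycline, with -0.63 and -0.52, and stood uncalled at 0.10 and -0.08 with MYCi975 in P493-6. DDX26B had 13.1, 13.1 and 13.9 CPM with tetracycline, against 8.43, 8.43 and 7.37 CPM in P493-6 controls (0.67, SE 0.12, adjusted p = 7.78e-06). In PC3 DDX26B averaged 0.953 ± 0.341 CPM with MYCi975 and 1.38 ± 0.446 CPM in controls, near the limit for being listed.

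The small rises in PC3 of DDX59 and DHX32 depended on single libraries. DDX59 lost its call without control replicate 3 (adjusted p = 0.062 in limma) or MYCi975 replicate 2 (0.0759), and DHX32 without control replicate 1, 2 or 3 or MYCi975 replicate 1 or 3 (0.0545 to 0.177).

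Set directly against each other in P493-6, MYCi975 and tetracycline left the family at different levels. With MYCi975, 38 of the 46 were higher than with tetracycline, 6 lower and 2 not called, with a median of 0.93, in a limma fit over 9 P493-6 libraries and 12860 genes. Over all genes 42.3% were higher and 33.9% lower, with a median of 0.08. With TMM factors 35 were higher and 6 lower, and the median over all genes was -0.01. By role, 14 of 15 ribosome assembly genes were higher with MYCi975 (median 1.52), 9 of 12 splicing genes (median 0.43), 3 of 4 export genes (median 0.77) and 6 of 7 of translation and decay (median 0.42). The 4 largest differences were 2.57 (SE 0.075, adjusted p = 1.57e-33) for DHX33, 2.46 (SE 0.040, adjusted p = 3.54e-44) for DDX21, 2.27 (SE 0.069, adjusted p = 9.30e-33) for DDX31 and 2.001 (SE 0.052, adjusted p = 8.49e-36) for DDX10. All 4 belong to ribosome assembly, and their MYCi975 libraries, given above, held several times the CPM of the tetracycline libraries. In the other direction DDX26B differed by -0.71 (SE 0.13, adjusted p = 2.48e-06), DDX59 by -0.59 (SE 0.094, adjusted p = 1.73e-07), DHX8 by -0.51 (SE 0.060, adjusted p = 2.40e-10) and DDX6 by -0.50 (SE 0.042, adjusted p = 2.36e-15), with DDX39B and DDX17 at -0.23 and -0.12. For DDX5 the difference was 0.07, with an interval of -0.01 to 0.15 (-0.04 with TMM factors), and for DDX47 0.19, with an interval of -0.15 to 0.53. In every library, 39 members were above and 5 below the tetracycline group, where 42.7% and 34.2% of all genes were. The calls of DDX19B and DDX39B were lost without MYCi975 replicate 1 or 3, and without tetracycline replicate 1 or 2 for DDX19B and 2 or 3 for DDX39B (adjusted p 0.0813 to 0.221 in limma), and that of DDX39B also without control replicate 2 (0.0532). That of DDX19B was lost with TMM factors (0.28) and edgeR (0.318), as were DDX23 and DHX38, and that of DDX39B with a pseudocount of 0.1 (0.0569), a mean CPM of at least 5 (0.0512) and the replicate block (0.0564).

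Across the lines the MYCi975 effect differed for 18 members, 14 with the lower change in PC3 and 4 with the higher, in a limma fit of line, treatment and their interaction over 12 libraries. Of all 11240 genes in that fit, 18.2% had the lower change in PC3 and 18.1% the higher. The median difference, PC3 minus P493-6, was -0.07 over the 46 and 0.01 over all genes, and the doses differed between the lines. The largest differences were -0.79 (SE 0.062, adjusted p = 2.58e-13) for DDX46, -0.65 (SE 0.053, adjusted p = 4.66e-13) for DHX15, -0.54 (SE 0.10, adjusted p = 5.52e-05) for DHX34 and -0.44 (SE 0.058, adjusted p = 8.88e-08) for DHX37, all with the lower change in PC3. Side by side, DDX46 changed by -1.12 in PC3 with MYCi975 and -1.27 in P493-6 with tetracycline, and DHX15 by -0.94 and -1.42, a difference that was not tested. On the other side stood 0.41 (SE 0.12, adjusted p = 0.00677) for DDX19B, 0.27 (SE 0.062, adjusted p = 0.00075) for DDX41, 0.22 (SE 0.054, adjusted p = 0.00169) for DDX10 and 0.19 (SE 0.065, adjusted p = 0.0181) for DDX42. These 4 rose in PC3 and were not called in P493-6, at -0.16, -0.11, -0.11 and -0.04, the last of which was 0.01 with TMM factors. For DDX42 the difference was lost without PC3 control replicate 1 (0.13, adjusted p = 0.104 in limma) or without P493-6 control replicate 1 (0.16, 0.0635) or MYCi975 replicate 1 (0.17, 0.0524). Across the 46 genes the changes in the 2 lines correlated with r = 0.649 and Spearman's rho = 0.620, a description over genes that share their libraries. The changes in PC3 with MYCi975 and in P493-6 with tetracycline correlated with r = 0.319 and rho = 0.389 over the same genes.

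**Figure D4:**
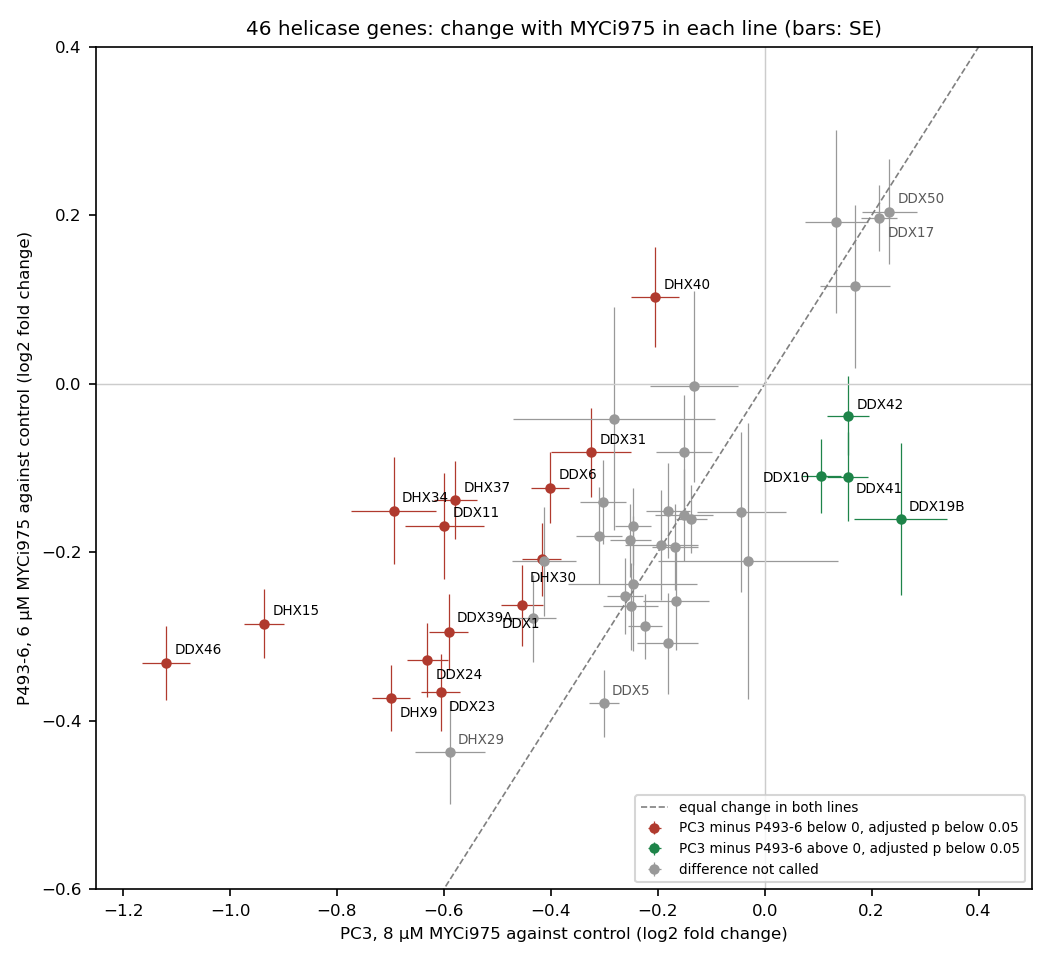
Log2 difference from control with MYCi975 in PC3 (x axis) against P493-6 (y axis) for the 46 helicases, with bars of 1 SE. Red and green points are the 14 and 4 members whose change was lower or higher in PC3, grey points were not called, and the dashed line marks equal change. DDX46 and DHX15 lie farthest left at -1.12 and -0.94 in PC3, and DDX17 and DDX50 are the pair at the upper right.

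Within the paralog pairs the balance of partners shifted, given as the log2 of the ratio of their CPM in each library. The ratio of DDX5 to DDX17 was 0.88, 0.84 and 0.85 in PC3 with MYCi975, against 1.33, 1.44 and 1.35 in PC3 controls. In P493-6 it was -0.07, 0.01 and -0.05 with MYCi975 and -0.21, -0.25 and -0.21 with tetracycline, against 0.56, 0.52 and 0.55 in controls. DDX17 thus passed DDX5 in CPM in all 3 tetracycline libraries. Per kb of coding sequence it did not, with means there of 259 ± 5.13 for DDX5 and 254 ± 1.58 for DDX17, within their spread. The ratio of DDX21 to DDX50, which sit side by side on chromosome 10, was 2.70, 2.69 and 2.59 in PC3 with MYCi975, against 3.004, 3.17 and 3.19 in controls. In P493-6 it was 3.44, 3.59 and 3.53 with MYCi975 and 1.67, 1.57 and 1.79 with tetracycline, against 4.05, 4.01 and 3.99 in controls. Both ratios were below control in every treated library of both lines.

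The ratio of DDX39A to DDX39B was 3.002, 2.80 and 3.06 in PC3 with MYCi975, against 3.67, 3.45 and 3.40 in controls. In P493-6 it was 2.89, 2.55 and 2.60 with MYCi975, which overlapped the controls, and 1.28, 0.93 and 1.08 with tetracycline, against 2.53, 2.94 and 2.99 in controls. The ratio of DDX19A to DDX19B was 1.57, 1.67 and 1.52 in PC3 with MYCi975, against 2.05, 2.17 and 2.11 in controls. In P493-6 it was 2.06, 2.20 and 1.998 with MYCi975 and 0.92, 1.06 and 0.88 with tetracycline, against 2.22, 2.13 and 2.20 in controls. With tetracycline all 4 ratios lay below control in every library. With 3 against 3 libraries an exact permutation test cannot go below p = 0.1, so the ratios were not tested.

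**Figure D5:**
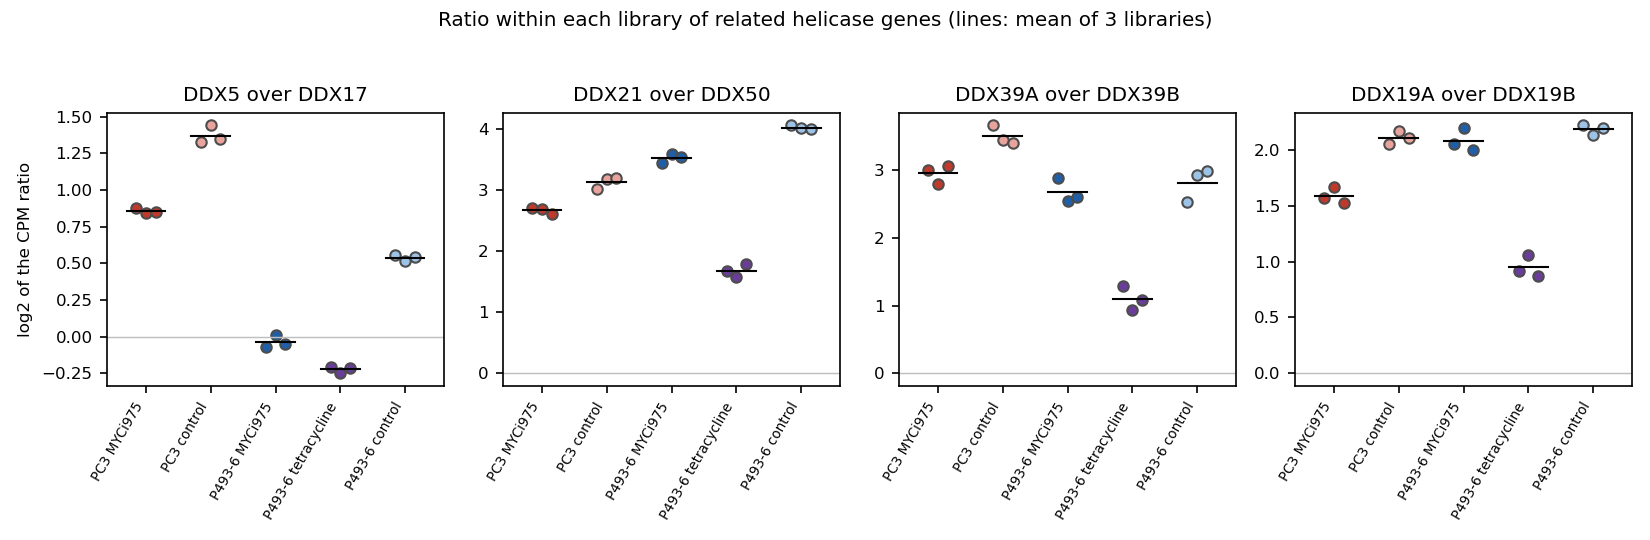
Log2 of the CPM ratio between the partners of 4 paralog pairs in each of the 15 libraries (points are libraries, lines group means). In the tetracycline group every pair has its lowest mean ratio of the 3 P493-6 groups, and DDX21 over DDX50 shows the largest shift, to a mean of 1.68 against 4.02 in controls.

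Genes that work with these helicases were read from 4 lists. Over all genes 30.1% fell and 29.0% rose in PC3 (median -0.00). In P493-6 18.0% fell and 10.6% rose with MYCi975 (median -0.04), and 41.9% fell and 36.2% rose with tetracycline (median -0.05). Of 17 other RNA helicases, outside the DDX and DHX names, 8 fell and 3 rose in PC3 (median -0.03), 5 fell and 1 rose in P493-6 with MYCi975 (median -0.11), and 12 fell and 5 rose with tetracycline (median -0.40). EIF4A3, the DEAD box anchor of the exon junction complex, averaged 155 ± 3.27 CPM in PC3 with MYCi975, against 224 ± 5.52 CPM in controls (-0.53, SE 0.036, adjusted p = 3.36e-24). In P493-6 EIF4A3 averaged 253 ± 8.26 CPM with MYCi975 and 91.5 ± 7.37 CPM with tetracycline, against 311 ± 6.57 CPM in controls (-0.30 and -1.76, both called). UPF1, the helicase of nonsense-mediated decay, changed by -0.51 and HELZ by -0.46 in PC3. With tetracycline SUPV3L1, which works in mitochondrial RNA decay, changed by -2.003, and HELZ2 rose by 5.03. In P493-6 with MYCi975 SKIV2L2, the helicase of the nuclear exosome, and ZNFX1 changed by -0.16 and -0.15, and the call of ZNFX1 was lost with TMM factors (adjusted p = 0.126 in limma) and without control replicate 2 or MYCi975 replicate 1 or 2 (0.0535 to 0.18).

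G-patch proteins switch DEAH helicases on. Of 21, 15 fell and 1 rose in PC3 (median -0.20). In P493-6 11 fell and 1 rose with MYCi975 (median -0.17), and 10 fell and 5 rose with tetracycline (median -0.08). With tetracycline 47.6% of the 21 thus fell and 23.8% rose, where 41.9% and 36.2% of all genes did. The largest changes were NKRF -0.61, CHERP -0.61 and RBM10 -0.45 in PC3, and GPATCH11 -0.37, NKRF -0.36 and PINX1 -0.33 in P493-6 with MYCi975, the last lost without control replicate 2 (adjusted p = 0.072 in limma). With tetracycline PINX1 changed by -2.38, GPATCH4 by -2.002 and NKRF by -1.33, and all 3 are known as nucleolar partners of DHX15. Of 21 partners of DEAD box helicases, 12 fell and 6 rose in PC3 (median -0.17). These were 57.1% and 28.6% of the 21, where 30.1% and 29.0% of all genes fell and rose. In P493-6 7 fell and 2 rose with MYCi975 (median -0.12), and 16 fell and 1 rose with tetracycline (median -0.55). GEMIN4, which binds DDX20 in the SMN complex, changed by -0.87 in PC3 and -2.10 with tetracycline, and GEMIN5 by -0.55 and -3.40. EIF4B, a cofactor of the EIF4A helicases, rose by 0.36 in P493-6 with MYCi975, where EIF4G2 and LSM14B, a partner of DDX6, changed by -0.30 and -0.26, with the LSM14B call lost without MYCi975 replicate 1 (adjusted p = 0.0706 in limma). EIF4G2 changed by -0.56 in PC3, and NOM1 by -1.67 with tetracycline.

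Of 10 subunits of TREX, the export complex around DDX39B, 4 fell and 2 rose in PC3 (median -0.10). These were 40% and 20% of the 10, where 30.1% and 29.0% of all genes fell and rose. In P493-6 3 fell and none rose with MYCi975 (median -0.12), and 8 fell and 1 rose with tetracycline (median -0.71). ALYREF, the adaptor that DDX39B loads, changed by -0.67 in PC3, -0.32 with MYCi975 in P493-6 and -1.18 with tetracycline. THOC1, a core subunit, changed by -0.74, -0.26 and -1.52 in the same comparisons, while THOC6 rose by 0.63 in PC3. THOC2 changed by -0.22 in P493-6 with MYCi975 and THOC3 by -1.49 with tetracycline. All of these changes were called in limma over all genes of their table.

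Without treatment with MYCi975 or tetracycline the lines also differed. Of the 46, 25 were lower and 14 higher in PC3 controls than in P493-6 controls, with a median of -0.19, where 43.0% of 11240 genes were lower and 41.8% higher, with a median of -0.04. In every library 25 were below and 13 above the P493-6 controls, where 43.4% and 41.9% of all genes were. DDX31 had 25.5, 27.0 and 31.5 CPM in PC3 controls, against 98.9, 96.5 and 89.3 CPM in P493-6 controls (-1.73, SE 0.065, adjusted p = 4.99e-25), and DHX9 274, 282 and 281 CPM, against 713, 668 and 697 CPM (-1.31, SE 0.036, adjusted p = 1.50e-29). DDX26B, at about the lowest level in both lines, differed by -1.95 (SE 0.16, adjusted p = 8.37e-14), DDX28 by -1.60 (SE 0.11, adjusted p = 9.49e-16) and DDX46 by -0.97 (SE 0.044, adjusted p = 2.70e-22). Higher in PC3 controls were DHX32, with 40.6, 41.2 and 42.1 CPM, against 13.5, 14.4 and 14.2 CPM in P493-6 controls (1.49, SE 0.087, adjusted p = 8.43e-19), and DDX41, with 153, 145 and 149.8 CPM, against 91.8, 87.0 and 89.2 CPM (0.74, SE 0.044, adjusted p = 1.88e-18). DHX40 and DDX59 were also higher, by 0.67 and 0.65. All 4 export helicases were lower in PC3, although the call of DDX39A (-0.09) was lost with TMM factors (adjusted p = 0.295 in limma), with the replicate block (0.154) and without PC3 control replicate 2 or 3, PC3 MYCi975 replicate 1 or P493-6 control replicate 1 or 2 (0.0501 to 0.166). Line and cell type cannot be told apart here.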

How the data were processed

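Exon capture libraries from 50 ng of total RNA were made with a stranded kit (TruSeq RNA Access), per the labels' protocols. STAR, HTSeq and edgeR with the build hg38 are named in the submitters' processing notes, without versions. The authors deposited CPM per gene, in 3 tables of 6 libraries. The genes listed all exceed a CPM of 1 in 2 or more of the 6 libraries, and each value came out as a whole number of reads for 100% of genes (tolerance 0.001 reads). Per the file headers the deposited tables also hold the authors' log2 changes, a likelihood ratio score and p-values, which were not used for any result. The P493-6 control columns are identical in both P493-6 tables.

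Because the values are CPM, log2(CPM + 1) was tested over all genes of a table with limma 3.58.1 in R 4.3.3 (trend and robust settings), two-sided, with Benjamini-Hochberg adjustment over all genes and a threshold of 0.05. "Rose", "fell" and "called" refer to this threshold, and adjusted p-values in the text come from it. Differences of + 1 values understate changes of low genes. The quasi-likelihood test of edgeR 4.0.16 was run on recovered reads as an alternative. Other alternatives were a pseudocount of 0.1, a mean CPM of at least 5, TMM factors, all 9 P493-6 libraries, the replicate number as a block, and each library left out. The steps were tested on simulated data.

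The members, roles and lists were chosen with earlier results of these data known. Full values are given for the 6 largest rises and falls per comparison at a mean CPM of at least 5, members called in opposite directions, the 4 largest differences each way between treatments and between lines, and 4 paralog pairs, and from each other list the 3 largest called changes. Promoters are RefSeq windows of GRCh38.p14. Exon overlaps come from the reference annotation and cover only genes listed in the deposited tables, so overlaps with other genes were not seen. DHX33, DDX18 and DDX49 have no entry in the promoter table. Depth per group was 13571476 to 14146453 reads (PC3 MYCi975), 13174502 to 15926008 (PC3 control), 10016138 to 11691303 (P493-6 MYCi975), 8162582 to 9895173 (tetracycline) and 9774101 to 12212555 (P493-6 control), and the median coefficient of variation of a member within a group was 2.84% to 4.75%.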

Additional observations from a re-analysis of the deposited data

Results flagged for a closer look

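The MYCi975 effect differed between the lines, PC3 minus P493-6, for 18 helicases by the interaction term of the limma fit over 12 libraries (log2 differences, adjusted over 11240 genes). It was lower in PC3 for 30.4% of the helicases and higher for 8.7%, where 18.2% and 18.1% of all genes were. The change was lower in PC3 for DDX46 at -0.79 (adjusted p = 2.58e-13), DHX15 at -0.65 (4.66e-13), DHX34 at -0.54 (5.52e-05), DHX37 at -0.44 (8.88e-08), DDX11 at -0.43 (0.000341) and DHX9 at -0.33 (2.79e-06). It was also lower for DHX40 at -0.31 (0.00075), DDX24 at -0.30 (8.60e-05), DDX39A at -0.30 (0.00013), DDX6 at -0.28 (5.16e-05), DDX31 at -0.24 (0.0365) and DDX23 at -0.24 (0.000889). Smaller differences of the same direction were DHX30 at -0.21 (0.00257) and DDX1 at -0.19 (0.0186). The change was higher in PC3 for DDX42 at 0.19 (0.0181), DDX10 at 0.22 (0.00169), DDX41 at 0.27 (0.00075) and DDX19B at 0.41 (0.00677). For DHX40 the change from control was -0.21 in PC3 and, not called, 0.10 in P493-6. The doses were 8 µM in PC3 and 6 µM in P493-6. The DDX1 difference was lost without PC3 control replicate 2, PC3 MYCi975 replicate 3 or P493-6 control replicate 2 or 3 (adjusted p 0.0561 to 0.0716 in limma). The DDX31 difference was lost without PC3 control replicate 3, PC3 MYCi975 replicate 2 or 3, P493-6 control replicate 3 or P493-6 MYCi975 replicate 2 (adjusted p 0.0586 to 0.186).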

How the results depend on the processing

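No called value changed sign. Of values not called, TMM factors turned 2 in P493-6 with MYCi975 (DDX42, DHX35), 1 for MYCi975 against tetracycline (DDX5), 6 for PC3 minus P493-6 and 2 between control lines. Counts of helicases stayed within 1.5 times in every alternative, except that leaving out 1 P493-6 library gave 1 to 3 rises with MYCi975 there, 1 without MYCi975 replicate 1 and 3 without MYCi975 replicate 2 (falls 21 to 30). With TMM factors the medians were -0.13 for P493-6 with MYCi975, -0.92 with tetracycline, 0.83 for MYCi975 against tetracycline, -0.10 for PC3 minus P493-6 and -0.15 for control PC3 against control P493-6. With edgeR on recovered reads they were -0.13, -0.94, 0.86, -0.11 and -0.15. A mean CPM of at least 5 gave -1.14 with tetracycline and -0.13 for the control lines. Leaving out single libraries gave medians from -0.20 to -0.15 in P493-6 with MYCi975 and 0.87 to 0.93 for MYCi975 against tetracycline. Over the 46 helicases and 6 comparisons, TMM factors ended 14 calls and added 4, edgeR ended 14 and added 5, the replicate block ended 6 and all 9 P493-6 libraries 4. A mean CPM of at least 5 ended 1 and added 1, and a pseudocount of 0.1 ended 1. Leaving out libraries ended 81 calls, added 14 and left 2251 as they were. The causes were not tested. Samples of the same replicate number did not deviate together (correlations -0.07 to 0.04), nor did those of different numbers (-0.04 to 0.07). Values near 0 cannot show whether the libraries were paired by design. With the replicate block 33 fell and 8 rose in PC3, 26 fell and 2 rose in P493-6 given MYCi975, and 40 fell and 5 rose given tetracycline. Depth limits DDX26B and DDX47 most, at a few CPM.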

Other observations

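DDX52, a helicase of ribosome assembly, is listed by identifier without a symbol and is therefore outside the naming rule. It averaged 69.3 ± 1.77 CPM in PC3 with MYCi975 and 90.1 ± 3.999 CPM in PC3 controls, a log2 difference of -0.37 (SE 0.047, adjusted p = 3.83e-11). In P493-6 it averaged 85.6 ± 5.69 CPM with MYCi975 and 59.9 ± 5.46 CPM with tetracycline, against 101 ± 10.7 CPM in controls, log2 differences of -0.24 (SE 0.061, adjusted p = 0.00319) and -0.75 (SE 0.070, adjusted p = 3.77e-11) in limma.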
